A study of Danio rerio with 6 samples.

Results

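ER-associated degradation is the route by which the endoplasmic reticulum disposes of proteins that fail to fold. A misfolded glycoprotein is marked by mannosidases that trim its sugar chains, read by lectins, and brought to a ubiquitin ligase in the membrane, around which a channel, the ligase's cofactors and the derlins gather. The protein is then drawn into the cytosol by a ring-shaped ATPase and broken down by the proteasome. Hepatocytes, which secrete most plasma proteins, rely heavily on this route, and several of its genes are known targets of the unfolded protein response. The 9 genes described here were taken by name from the gene table of the series: the mannosidase family genes edem1, edem2 and edem3, the lectin gene os9, the ligase gene syvn1 with its partner sel1l, the cofactor gene herpud1, and the derlin genes derl1 and derl2. All 9 were found among the 23354 genes of the table.

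The libraries were made from livers dissected from adult zebrafish, 3 from capn3b-/- mutants and 3 from wild type fish of the laboratory strain AB. The gene capn3b encodes a zebrafish calpain, a protease that needs calcium, and the series set out to find which genes differ between mutant and wild type liver. No other allele, treatment or agent is named in the labels, and neither the sex of the fish nor the number of animals behind a library is given, so sex and genotype cannot be told apart. Nothing says that each library had its own fish, so p-values measure the spread between these libraries, which may be technical.

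Depth ranged from 16858409 to 19492592 reads per library. Values are FPKM, reads scaled by gene length and sequencing depth, and every gene level below is on that scale. The mutated gene had 0, 0 and 1 reads in mutant replicates 1 to 3 and 0 in every wild type library, and so checks no label. Hepatocyte markers summed to 164506 to 170650 FPKM in capn3b-/- livers and 158103 to 169777 in AB livers, so the labelled tissue carried its defining markers in all of them. Of 20 hepatocyte markers tested, 2 were called higher (fgb and cp) and 3 lower (apoba, hpx and tdo2a). That is 25%, against 11.4% of all tested genes called in either direction. Wild type replicate 1 stood apart by its pancreatic content: its 17 acinar markers summed to 2223 FPKM, against 400 to 1157 FPKM in capn3b-/- livers and 370 and 438 FPKM in the other wild type libraries, and its 10 endocrine markers to 341 FPKM, against at most 46.7 FPKM in any other library. Calls in the degradation route and the unfolded protein response that are lost without this library are given with the genes.

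Of the 9 genes, 3 were higher in the mutant liver and 0 were lower. The ligase gene syvn1, the mannosidase family gene edem1 and the lectin gene os9 passed the threshold (limma on log2(FPKM + 1), Benjamini-Hochberg adjustment over 11164 tested genes, adjusted p under 0.05). Of all tested genes 5.91% were called higher, 5.45% lower and 11.4% in either direction. None of the 9 was lower at an unadjusted p under 0.05 or by limma voom on read counts either, and voom called the same 3 higher (adjusted p = 0.0247 for edem1, 0.0211 for syvn1 and 0.0236 for os9). The other 6 genes did not pass, although sel1l, edem3 and herpud1 had unadjusted p-values under 0.05, as did 28.2% of all tested genes. In 7 of the 9 genes every mutant library lay above every wild type library, a pattern seen in 19.1% of all tested genes, and in none did every mutant library lie below (14.7% of all). The log2 fold change was positive in 8 of the 9, against 55.8% of all tested genes. The median log2 fold change of the 9 genes was 0.48, against 0.05 over all tested genes. These counts depended on single libraries, and the 3 calls were not kept together without any library. Without mutant replicate 3, 3 genes were called, but these were edem1, syvn1 and edem3, and os9 was lost. It was 2 (syvn1 and os9) without wild type replicate 3 and 1 (edem1) without wild type replicate 1. It was 0 once replicate 1 or 2 of the mutant or replicate 2 of AB was dropped.

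**Figure D1:**
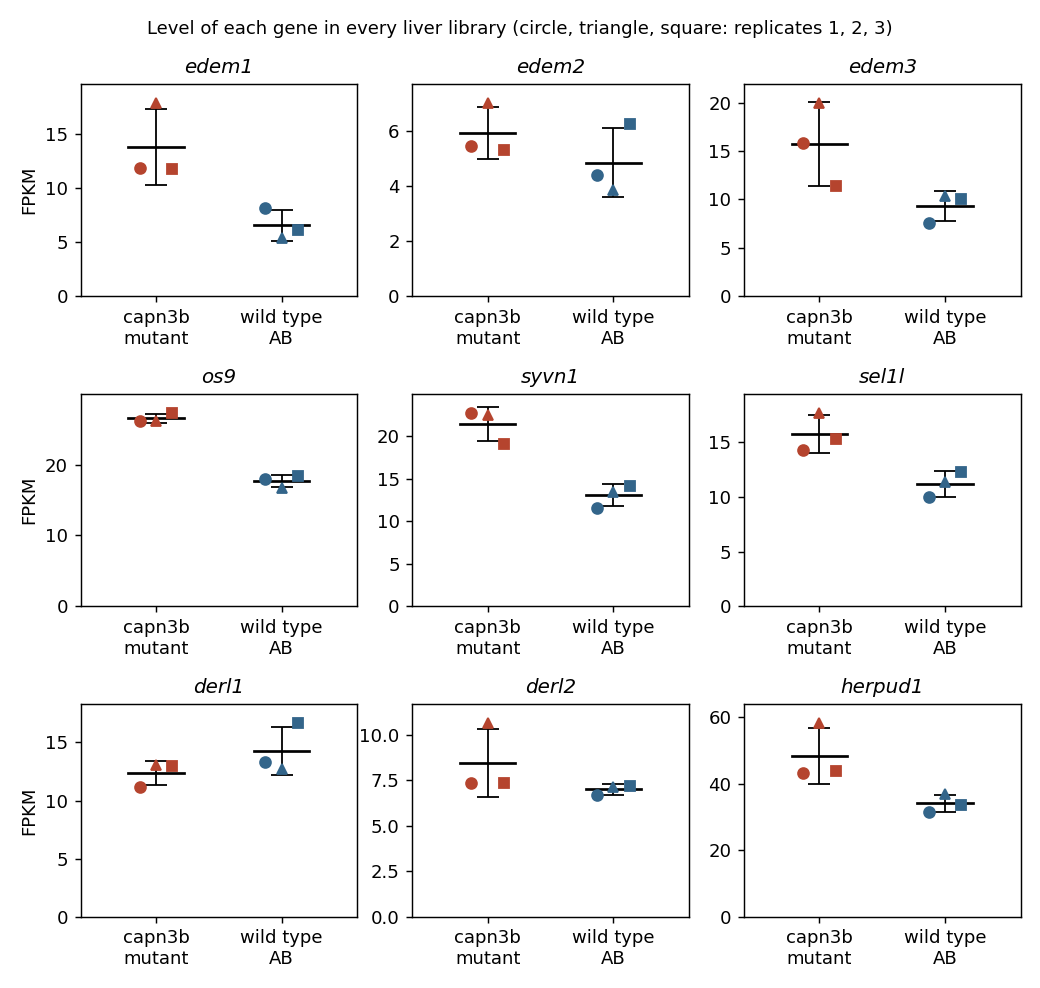
FPKM of each of the 9 genes (y axis, starting at 0) in the 3 capn3b mutant libraries (left, red) and the 3 wild type AB libraries (right, blue), with the mean and SD of each group in black (n = 3 each). The 3 mutant libraries lie above the 3 wild type libraries for all genes except edem2 and derl1, and mutant replicate 2 (triangle) is the highest mutant library in 7 of the 9 panels.

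The edem genes encode relatives of the mannosidases that act in the lumen on glycoproteins that fail to fold. The gene edem1 (ENSDARG00000025094, chromosome 6, 42935221 to 42951648, minus strand, coordinates as in the deposited table, GRCz11 build) had 11.8, 17.9 and 11.7 FPKM in mutant replicates 1 to 3, against 8.14, 5.33 and 6.15 FPKM in AB replicates. Every mutant library was above every wild type library, and mutant replicate 2 stood well above the other mutant libraries. The mean was 13.8 ± 3.5 FPKM in capn3b-/- and 6.54 ± 1.44 FPKM in AB (n = 3 each, SD), a ratio of 2.11. Its log2 fold change of 0.97 (standard error 0.21, limma adjusted p = 0.0271) exceeded that of 95.9% of all tested genes. The adjusted p lay between 0.022 and 0.0969 over 14 alternatives. In 6 of them it missed the threshold, among them those without replicate 1 (0.0584) or 2 (0.0707) of the mutant or replicate 2 (0.0969) or 3 (0.0615) of AB, and with no expression filter (0.0708).

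The gene edem3 (ENSDARG00000074129, chromosome 8, 19438974 to 19456188, minus strand) had 15.8, 19.99 and 11.3 FPKM in capn3b-/- livers, against 7.54, 10.4 and 10.01 FPKM in AB livers. The groups did not overlap, but mutant replicate 3 lay only just above the highest wild type library. The ratio of means was 1.69, and the log2 fold change of 0.68 (standard error 0.22) did not pass (limma adjusted p = 0.0871). It passed only when mutant replicate 3 was left out (0.0383, range over the 14 alternatives 0.0383 to 0.234). The gene edem2 (ENSDARG00000028448, chromosome 23, 7016957 to 7048994, minus strand) had 5.48, 7.03 and 5.31 FPKM in capn3b-/- livers, against 4.40, 3.88 and 6.27 FPKM in AB livers. Here the groups overlapped, since wild type replicate 3 lay above mutant replicates 1 and 3. The log2 fold change of edem2 was 0.26, with a 95% interval of -0.17 to 0.69 (limma adjusted p = 0.411). Its span overlaps slco4a1, and no source says that reads were counted by strand, so the 2 genes may share reads.

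The mannosidases of the same protein family, by the Pfam name in the deposited table, gave a mixed picture. Among the 9 genes of the Glyco_hydro_47 family, edem1 was the only one past the threshold, while 11.4% of all tested genes were called in either direction. The Golgi mannosidase gene man1a1 had 7.23, 8.61 and 5.13 FPKM in capn3b-/- livers, against 3.33, 3.93 and 4.91 FPKM in AB livers (log2 fold change 0.65, limma adjusted p = 0.0786). The gene man1b1b, a copy of the ER mannosidase gene MAN1B1 of mammals, had the opposite pattern, with 3.01, 2.87 and 3.18 FPKM in capn3b-/- livers, all below the 3.94, 7.04 and 7.57 FPKM of AB livers. Its log2 fold change of -0.80 missed the threshold (limma adjusted p = 0.0516), with a range of 0.0125 to 0.158 over 13 alternatives, and it passed in 5 of them. The other copy, man1b1a, had 1.44, 1.24 and 0.988 FPKM in capn3b-/- livers, against 1.17, 1.24 and 0.594 FPKM in AB livers. The groups of man1b1a overlapped (log2 fold change 0.16, limma adjusted p = 0.608). The Golgi mannosidase genes man1a2 and MAN1C1 had log2 fold changes of 0.08 and 0.06 and overlapping groups.

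The lectin gene os9 encodes a lumenal protein that binds trimmed sugar chains and takes the glycoprotein to the ligase complex. It was the most even of the 9 genes among the mutant libraries. The gene (ENSDARG00000020301, chromosome 6, 39205149 to 39221073, minus strand) had 26.2, 26.2 and 27.3 FPKM in capn3b-/- livers, against 17.9, 16.7 and 18.3 FPKM in AB livers. The SD was 2.29% of the mean in the mutant and 4.82% in AB, and the groups lay far apart relative to that spread. With means of 26.5 and 17.7 FPKM in mutant and wild type, the ratio was 1.504 and the log2 fold change 0.56 (standard error 0.12, limma adjusted p = 0.0282). That call was lost in 6 of 14 alternatives, those without replicate 1 (0.0922), 2 (0.079) or 3 (0.0648) of the mutant or replicate 1 (0.0629) or 2 (0.0961) of AB, and 1 other fit. Its log2 fold change stayed between 0.52 and 0.59 in all 14. The second lectin of this step, erlec1, had 16.5, 20.8 and 17.8 FPKM in capn3b-/- livers, against 11.9, 11.999 and 14.1 FPKM in AB livers. Its groups did not overlap either, and its log2 fold change of 0.50 did not pass (limma adjusted p = 0.065).

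The gene syvn1 encodes HRD1, the membrane ubiquitin ligase at the core of the route. On chromosome 14 (ENSDARG00000017842, 26154635 to 26167624, minus strand), it had 22.7, 22.5 and 19.1 FPKM in capn3b-/- livers, against 11.6, 13.5 and 14.2 FPKM in AB livers. The lowest mutant library lay clearly above the highest wild type library. Mean levels were 21.4 ± 2.0 FPKM in capn3b-/- and 13.1 ± 1.3 FPKM in AB (n = 3 each, SD), a ratio of 1.64, with a log2 fold change of 0.67 (standard error 0.14, limma adjusted p = 0.0263). Its adjusted p lay between 0.0191 and 0.0948 over 14 alternatives. It missed the threshold in 5 of them, among them those without replicate 1 (0.0948) or 2 (0.0849) of the mutant or replicate 1 (0.0715) or 2 (0.0784) of AB.

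The ligase's partner gene sel1l encodes the adaptor that holds the complex together and receives substrates from the lectins. It had 14.3, 17.7 and 15.3 FPKM in capn3b-/- livers, against 9.95, 11.4 and 12.3 FPKM in AB livers. No wild type library reached the lowest mutant library. The ratio of means was 1.40, smaller than that of syvn1, and the log2 fold change of 0.46 (standard error 0.15, 95% interval 0.12 to 0.79) did not pass (limma adjusted p = 0.0856). The gene (ENSDARG00000004581, chromosome 20, 27088326 to 27104208, plus strand) starts 986 kb from the end of the mutated gene capn3b. Of 40 tested genes within 2 Mb of capn3b, 2 were called higher and 8 lower (25%, against 11.4% of all tested genes), and of 181 within 10 Mb, 12.7% were called. An effect of sequence inherited together with the mutation cannot be told apart from genotype for sel1l.

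The cofactor gene herpud1 encodes a short-lived membrane protein with a ubiquitin-like domain that organises the ligase complex, and in mammals it is induced by ER stress. It was the most abundant of the 9 genes in both genotypes. The gene (ENSDARG00000024314, chromosome 18, 17611573 to 17619512, plus strand) had 43.3, 58.2 and 43.9 FPKM in capn3b-/- livers, against 31.6, 36.9 and 33.8 FPKM in AB livers. All mutant libraries were above all wild type libraries, with mutant replicate 2 far above the others. The ratio of means was 1.42 and the log2 fold change 0.48 (standard error 0.16, 95% interval 0.11 to 0.86), which did not pass (limma adjusted p = 0.0951, range over the 14 alternatives 0.0608 to 0.254). Its paralog herpud2 had 8.71 to 11.03 FPKM in capn3b-/- livers, against 9.16 to 10.9 FPKM in AB livers, with a log2 fold change of -0.01.

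The derlins are membrane proteins related to rhomboid proteases that take part in moving substrates out of the endoplasmic reticulum. The gene derl1 (ENSDARG00000021905, chromosome 16, 25728413 to 25748814, minus strand) had 11.2, 13.04 and 12.9 FPKM in capn3b-/- livers, against 13.4, 12.8 and 16.6 FPKM in AB livers. It was the only one of the 9 genes with a lower mean in the mutant, and its groups overlapped. Its log2 fold change was -0.18, with a 95% interval of -0.53 to 0.17 (limma adjusted p = 0.477). The gene derl2 (ENSDARG00000042401, chromosome 5, 58327448 to 58339456, plus strand) had 7.37, 10.6 and 7.38 FPKM in capn3b-/- livers, against 6.68, 7.13 and 7.201 FPKM in AB livers. The groups were separated by a narrow margin only, with 2 mutant libraries barely above the highest wild type library. The log2 fold change of derl2 was 0.22 with a 95% interval of -0.16 to 0.61 (limma adjusted p = 0.422), and 0.07 without mutant replicate 2. Another derlin gene, derl3, had 16.1, 27.8 and 17.95 FPKM in capn3b-/- livers, against 20.5, 18.3 and 18.5 FPKM in AB livers, with overlapping groups. The span of derl3 overlaps 5 other genes of the table, so its reads are uncertain. By the Pfam name in the deposited table the family also holds si:ch73-366i20.1, whose role is not known here. It had 4.74, 7.67 and 14.02 FPKM in capn3b-/- livers, all below the 23.2, 14.5 and 17.6 FPKM of AB livers, and did not pass (log2 fold change -1.08, limma adjusted p = 0.0798). For derl2, the gene with the fewest reads in a library, 139 reads in wild type replicate 3 gave 7.201 FPKM with an exact Poisson 95% interval of 6.05 to 8.503 FPKM, which covers counting error only.

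**Figure D2:**
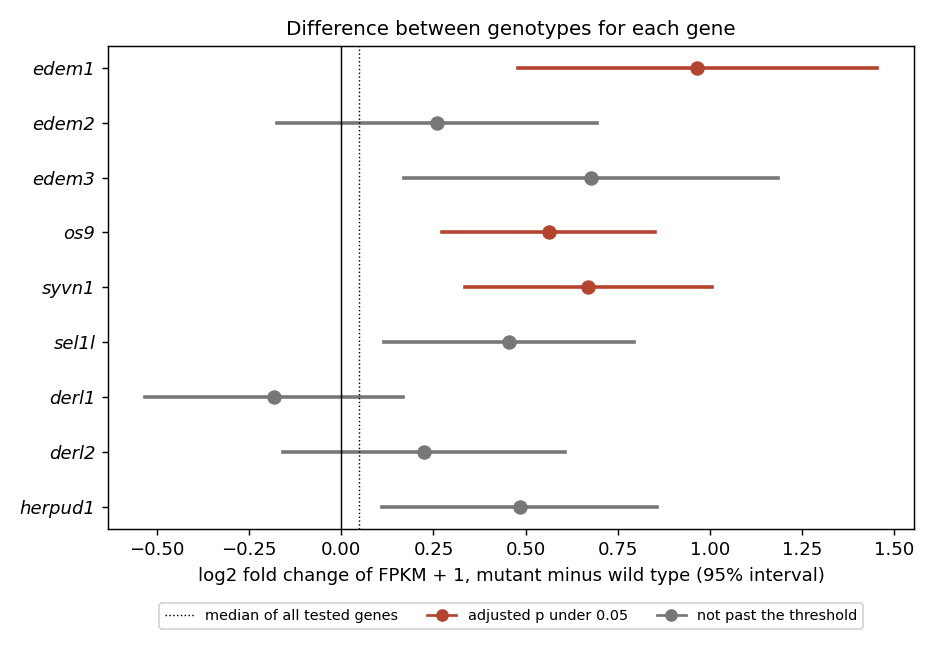
Log2 fold change of FPKM + 1 (x axis, mutant minus wild type) for each of the 9 genes, with 95% intervals from limma, in red where the adjusted p is under 0.05 and in grey otherwise. The intervals of edem1, os9, syvn1, edem3, sel1l and herpud1 lie above 0, those of edem2, derl1 and derl2 include it, and the dotted line marks the median of all tested genes at 0.05.

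Relative to derl1, the gene with the lowest fold change of the 9, levels of the others can be compared within a library. The ratio of edem1 to derl1 was 1.06, 1.37 and 0.906 in capn3b-/- livers, against 0.609, 0.418 and 0.370 in AB livers. That of syvn1 to derl1 was 2.03, 1.72 and 1.48 in capn3b-/- livers, against 0.869, 1.06 and 0.853 in AB livers. So syvn1 was clearly more abundant than derl1 in all mutant libraries and close to it in the wild type ones. Since derl1 was chosen after its values were seen, the choice favours higher ratios in the mutant for every other gene, and 32.3% of all tested genes had all mutant ratios to derl1 above all wild type ratios. The ratios are therefore given as a description: an exact two-sided permutation test of 3 against 3 libraries cannot go below 0.10.

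The order of the levels differed between the genotypes. In the mutant liver herpud1 came first (48.5 FPKM on average), followed by os9 (26.5), syvn1 (21.4), sel1l (15.8), edem3 (15.7), edem1 (13.8), derl1 (12.4), derl2 (8.46) and edem2 (5.94). In the wild type liver the order was herpud1 (34.1), os9 (17.7), derl1 (14.2), syvn1 (13.1), sel1l (11.2), edem3 (9.30), derl2 (7.003), edem1 (6.54) and edem2 (4.85). So derl1 ranked 7 in capn3b-/- and 3 in AB, and edem1 ranked 6 in capn3b-/- and 8 in AB. Neighbours whose libraries overlapped were sel1l and edem3, edem3 and edem1, and edem1 and derl1 in the mutant. In the wild type they were derl1 and syvn1, syvn1 and sel1l, sel1l and edem3, derl2 and edem1, and edem1 and edem2. Those neighbours are not separated beyond their spread.

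Together the 9 genes summed to 158, 193 and 154 FPKM in capn3b-/- livers, against 111, 118 and 125 FPKM in AB livers, a ratio of means of 1.43. Within that sum derl1 took 7.40 ± 0.87% in capn3b-/- and 12.05 ± 1.26% in AB, and edem1 8.12 ± 0.99% in capn3b-/- and 5.59 ± 1.51% in AB (n = 3 each, SD). The shares of herpud1 were 28.7% in capn3b-/- and 28.9% in AB, and those of sel1l 9.37% and 9.48%. Mutant replicate 2 was the highest mutant library in 7 of the 9 genes, all but syvn1 and os9. Wild type replicate 3 was the highest wild type library in 6 of them. Spread between libraries differed by gene: the SD was 27.5% of the mean for edem3 in the mutant and 25.9% for edem2 in the wild type, whereas it stayed under 5% in both genotypes for os9.

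The per-library event lists give a second summary of the same libraries, the FPKM of the assembled transcripts behind each start, end and splicing event, here summed per gene over starts or over ends, whichever was larger. By these transcript sums the mutant libraries lay above all wild type libraries for edem1, edem3, sel1l, syvn1 and os9, as they did for 17.2% of 9593 genes with a sum in every library. The reads are the same as those of the gene table, so this is no independent measurement. The transcript sum of syvn1 was 22.9, 22.4 and 19.9 FPKM in capn3b-/- livers, against 12.7, 13.4 and 13.8 FPKM in AB livers. For os9 it was 22.3, 22.6 and 22.5 FPKM in capn3b-/- livers, against 16.0, 14.3 and 15.9 FPKM in AB livers. In both genes the groups stayed well apart. For edem1 it was 15.0, 22.5 and 15.4 FPKM in capn3b-/- livers, against 9.17, 6.75 and 7.53 FPKM in AB livers. The groups overlapped for derl1, derl2, edem2 and also herpud1, whose transcript sum was 42.1, 61.6 and 64.6 FPKM in capn3b-/- livers, against 48.9, 39.4 and 34.9 FPKM in AB livers. So the separation of herpud1 at the gene level and its ratio of 1.42 did not carry over to every library of this second summary, where the ratio of means was 1.37. No test was run on the event lists.

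The event lists held alternative forms for several of the 9 genes, and in the 4 described here the groups overlapped. A form of edem1 that keeps 1 intron (chromosome 6, 42947452 to 42947542) made up 0%, 24.0% and 16.1% of both forms in capn3b-/- livers, against 0%, 40.8% and 23.5% in AB livers. For edem3, the form with the slightly longer last exon took 52.5%, 37.6% and 49.6% in capn3b-/- livers, against 62.0%, 25.7% and 0% in AB livers. A second, inner transcript end of derl1 took 0%, 42.9% and 0% of both ends in capn3b-/- livers, against 35.6%, 41.5% and 29.3% in AB livers. The second start of herpud1 took 0%, 0% and 34.9% of both starts in capn3b-/- livers, against 26.0%, 0% and 0% in AB livers. A value of 0 in the event lists can be a failed estimate of a transcript form, so it is given as listed.

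The wider route was described by genes grouped by step. The 9 genes are in none of these lists. Among 21 tested genes of recognition, sugar trimming and lumenal folding helpers, 10 rose (47.6%, against 5.91% of all tested genes), none fell and 11 did not pass, with a median log2 fold change of 0.60. At an unadjusted p under 0.05 it was 14 higher and 1 lower, against 28.2% of all tested genes in either direction. By limma voom 10 were called higher and 1 lower. Most of the 10 serve folding as well as degradation. The list was chosen with earlier results of these data known, so its share of calls is a description only. The chaperone gene hsp90b1 had 272, 417 and 312 FPKM in capn3b-/- livers, against 135, 173 and 137 FPKM in AB livers (log2 fold change 1.15, limma adjusted p = 0.0123). The lectin chaperone gene calr3b, a calreticulin, had 89.0, 136 and 81.5 FPKM in capn3b-/- livers, against 39.4, 42.6 and 46.5 FPKM in AB livers (1.202, limma adjusted p = 0.0133). The co-chaperone gene dnajc3a had 51.1, 72.4 and 55.0 FPKM in capn3b-/- livers, against 28.3, 30.7 and 30.9 FPKM in AB livers (0.95, limma adjusted p = 0.0133). In each of these 3 genes mutant replicate 2 was the highest library. The other 7 were dnajb11 (log2 fold change 1.04), hyou1 (1.16), sdf2l1 (1.37), hspa5 (1.46), calr3a (0.61), txndc11 (0.84) and canx (0.60), where hspa5 encodes BiP, the main lumenal chaperone. The span of txndc11 overlaps rdh8b. Without wild type replicate 2 the limma adjusted p was above 0.05 for calr3b (0.0558), dnajc3a (0.0525), dnajb11 (0.0659), hyou1 (0.0573), sdf2l1 (0.0703), calr3a (0.0784), txndc11 (0.0927) and canx (0.136), and only hsp90b1 (0.0327) and hspa5 (0.0317) passed. Without wild type replicate 1, hspa5 (0.0525), txndc11 (0.0751) and canx (0.109) did not pass.

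The list of the membrane channel, ligase complexes and ubiquitin-conjugating enzymes leaves out syvn1, sel1l, herpud1, derl1 and derl2, of which only syvn1 was called. It also holds stt3b, a sugar transferase subunit. Among its 39 tested genes only stt3b rose (2.56%, against 5.91% of all tested genes). None fell and 38 did not pass, and the median log2 fold change was 0.04. At an unadjusted p under 0.05 it was 3 higher and 0 lower, against 28.2% of all tested genes in either direction. By limma voom 2 were called higher and 0 lower. The gene stt3b, a catalytic subunit of the sugar transferase, had 24.3, 29.0 and 24.5 FPKM in capn3b-/- livers, against 14.9, 14.4 and 19.5 FPKM in AB livers (log2 fold change 0.65, limma adjusted p = 0.0418), and in 7 of 14 alternatives it missed the threshold, with adjusted p up to 0.134 and 0.110 without wild type replicate 1. The next genes of that list by p-value were insig1, a regulator of sterol synthesis (0.82, limma adjusted p = 0.0611), with 20.6, 13.1 and 24.8 FPKM in capn3b-/- livers, against 10.2, 8.94 and 11.8 FPKM in AB livers, and rhbdd1. The rhomboid protease gene rhbdd1 had 4.42, 5.48 and 3.63 FPKM in capn3b-/- livers, against 2.88, 2.93 and 3.43 FPKM in AB livers (0.42, limma adjusted p = 0.129). Neither passed, though in both every mutant library lay above every wild type library. The reads of insig1 are uncertain, since its span overlaps si:dkey-151p11.2.

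Among 29 tested genes of extraction, deglycosylation and delivery to the proteasome, rad23aa rose (3.45%, against 5.91% of all tested genes), none fell and 28 did not pass, with a median log2 fold change of 0.21. At an unadjusted p under 0.05 it was 8 higher and 1 lower, against 28.2% of all tested genes in either direction, while limma voom called 0. The shuttle factor gene rad23aa had 11.6, 12.7 and 11.6 FPKM in capn3b-/- livers, against 8.55, 7.97 and 8.41 FPKM in AB livers (log2 fold change 0.48, limma adjusted p = 0.0459), and in 10 of 14 alternatives it missed the threshold, with adjusted p up to 0.137 and 0.0942 without wild type replicate 1. The ubiquitin chain elongation factor gene ube4b had 7.99, 9.47 and 6.58 FPKM in capn3b-/- livers, against 4.69, 4.89 and 6.04 FPKM in AB livers (0.53, limma adjusted p = 0.0789). The deubiquitinase gene usp25 had 3.93, 3.40 and 3.76 FPKM in capn3b-/- livers, against 4.92, 5.46 and 5.09 FPKM in AB livers (-0.39, limma adjusted p = 0.0837). Both missed the threshold with groups that did not overlap. The ATPase gene vcp, which extracts the substrates, had 64.2, 86.6 and 56.7 FPKM in capn3b-/- livers, against 43.5, 46.1 and 52.5 FPKM in AB livers (0.52, limma adjusted p = 0.112). All mutant libraries of vcp lay above all wild type libraries as well, again with replicate 2 highest. Over the 3 lists together 12 of 89 tested genes rose (13.5%, against 5.91% of all tested genes rising and 11.4% called in either direction). Of these 12, 10 are in the recognition list, and most of those serve folding as well as degradation. Without wild type replicate 2 it was 2 genes, and without either mutant replicate 1 or mutant replicate 2 it was 7. Without wild type replicate 1, 9 were called higher and 2 lower.

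Some signalling genes of the unfolded protein response drive several of the 9 genes in mammals. The list for this response also held manf, which the response induces. Of 13 tested, 2 rose (xbp1 and manf, 15.4%, against 5.91% of all tested genes), none fell and 11 did not pass. The median log2 fold change was 0.16. At an unadjusted p under 0.05 it was 5 higher and 1 lower, against 28.2% of all tested genes in either direction. By limma voom 3 were called higher and 0 lower. The transcription factor gene xbp1 had 222, 210 and 145 FPKM in capn3b-/- livers, against 78.8, 71.5 and 80.5 FPKM in AB livers (log2 fold change 1.29, limma adjusted p = 0.00724). The gene manf, which encodes a lumenal factor induced by ER stress, had 19.9, 30.7 and 17.7 FPKM in capn3b-/- livers, against 8.93, 10.01 and 10.98 FPKM in AB livers (1.08, limma adjusted p = 0.0201). In both genes the mutant libraries lay far above the wild type ones, and xbp1 kept its call in all 14 alternatives while manf lost it in 4, among them those without replicate 1 (0.0552) or 2 (0.0712) of AB. The sensor gene atf6 had 17.7, 19.5 and 15.0 FPKM in capn3b-/- livers, against 12.1, 10.7 and 12.1 FPKM in AB livers (0.53, limma adjusted p = 0.0542). Its span overlaps rxrgb, so the reads of atf6 are uncertain. FPKM per gene do not show how much of xbp1 is in its spliced, active form.

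A check by annotation gave a smaller share of calls than the 3 lists together. In the deposited annotation 80 genes carry a term for ER-associated degradation, 8 of the 9 genes among them. Of the 52 tested genes with such a term outside the 9, 3 rose and none fell (5.77%, against 11.4% of all tested genes in either direction), with a median log2 fold change of 0.16. This list was chosen after the data had been seen.

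**Figure D3:**
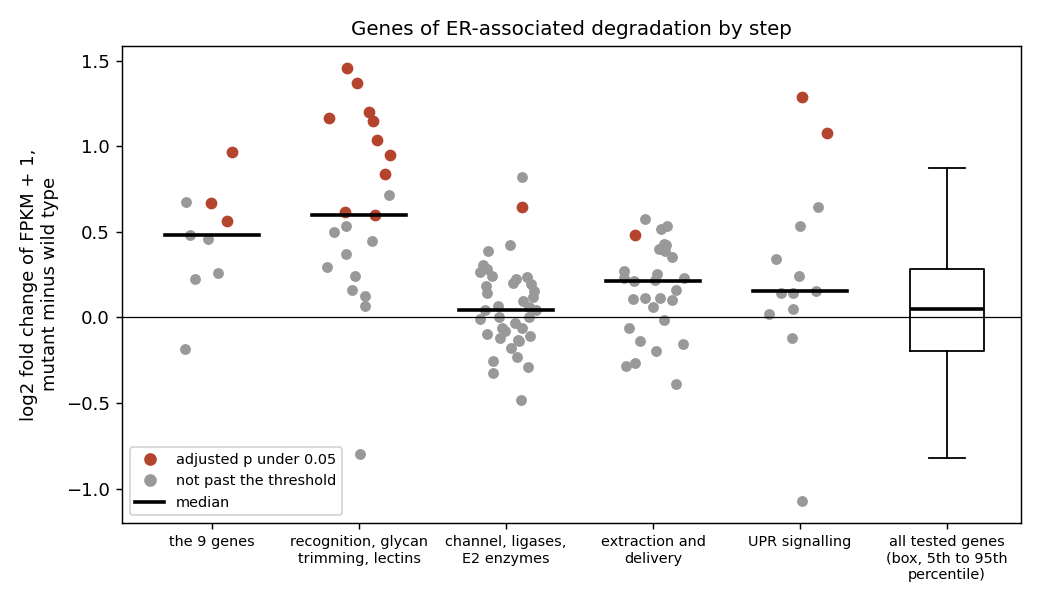
Log2 fold change of FPKM + 1 (y axis, mutant minus wild type) of each tested gene, by step of ER-associated degradation, with genes past the threshold in red, others in grey, and the median of each group as a black bar. The box at the right spans all 11164 tested genes. The lists were chosen with earlier results of these data known. The recognition group, with its chaperones, has 10 of 21 genes past the threshold and a median of 0.60. The channel and ligase group has 1 of 39 and a median of 0.04. It leaves out syvn1, sel1l, herpud1, derl1 and derl2, since the 9 genes form a group of their own.

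Some markers of other cells moved with genotype beside the 9 genes. Of all tested genes 5.91% were called higher and 5.45% lower. Neutrophil markers, 11 in number, summed to 28.9 to 73.1 FPKM in capn3b-/- livers, against 8.42 to 15.7 FPKM in AB livers, and 6 of 7 tested rose. Macrophage markers summed to 473 to 761 FPKM in capn3b-/- livers, against 284 to 484 FPKM in AB livers, with 7 of 16 tested risen. Erythrocyte markers summed to 218 to 247 FPKM in capn3b-/- livers, against 411 to 473 FPKM in AB livers, with 8 of 12 tested fallen. Biliary markers summed to 1127 to 1446 FPKM in capn3b-/- livers, against 686 to 701 FPKM in AB livers. Of 9 tested, the keratin genes krt18 and krt8 rose and 7 did not pass. In 4 of these 9 markers every mutant library lay above every wild type library, a pattern seen in 19.1% of all tested genes. The marker anxa4 overlapped, with 176 to 216 FPKM in capn3b-/- livers, against 181 to 209 FPKM in AB livers. The part of these cells in the level of the 9 genes was not tested. In bulk tissue more cells of a type and more RNA per cell cannot be told apart.

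Among markers of secretory cells, those of acinar cells did not separate the genotypes. Of all tested genes 11.4% were called and 28.2% had an unadjusted p under 0.05. Pancreatic endocrine markers summed to 0.983 to 1.09 FPKM in capn3b-/- livers, against 341, 46.7 and 0.920 FPKM in AB livers, and 0 of the 10 entered the test. Acinar markers summed to 400, 887 and 1157 FPKM in capn3b-/- livers, against 2223, 438 and 370 FPKM in AB livers, and 0 of 16 tested passed, by limma after adjustment, at an unadjusted p under 0.05, or by limma voom. The library richest in them, wild type replicate 1, was the lowest wild type library in 5 of the 9 genes and the highest for edem1 (8.14 FPKM). The part of pancreatic cells in the level of the 9 genes was not tested. Of 8 B and plasma cell markers the immunoglobulin gene listed as ighv1-4 was the only one high enough to be tested, with 1.05, 0.666 and 4.595 FPKM in capn3b-/- livers, against 1.21, 0.402 and 8.95 FPKM in AB livers. The plasma cell regulator gene prdm1a stayed at or under 0.308 FPKM in every library. Endothelial markers summed to 29.3 to 32.8 FPKM in capn3b-/- livers and 30.03 to 30.9 FPKM in AB livers, stellate and mesenchymal markers to 27.1 to 47.6 FPKM in capn3b-/- and 20.3 to 31.7 FPKM in the wild type, and T and NK cell markers to 4.40 to 5.17 FPKM in capn3b-/- and 2.72 to 4.57 FPKM in the wild type. Of the tested genes of these 3 lists 0 passed by limma after adjustment. At an unadjusted p under 0.05 there were 3 of 7 stellate and mesenchymal genes and 1 of 2 T and NK cell genes. For endothelial genes it was 0 of 8. By limma voom 1 stellate and mesenchymal gene was called.

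**Figure D4:**
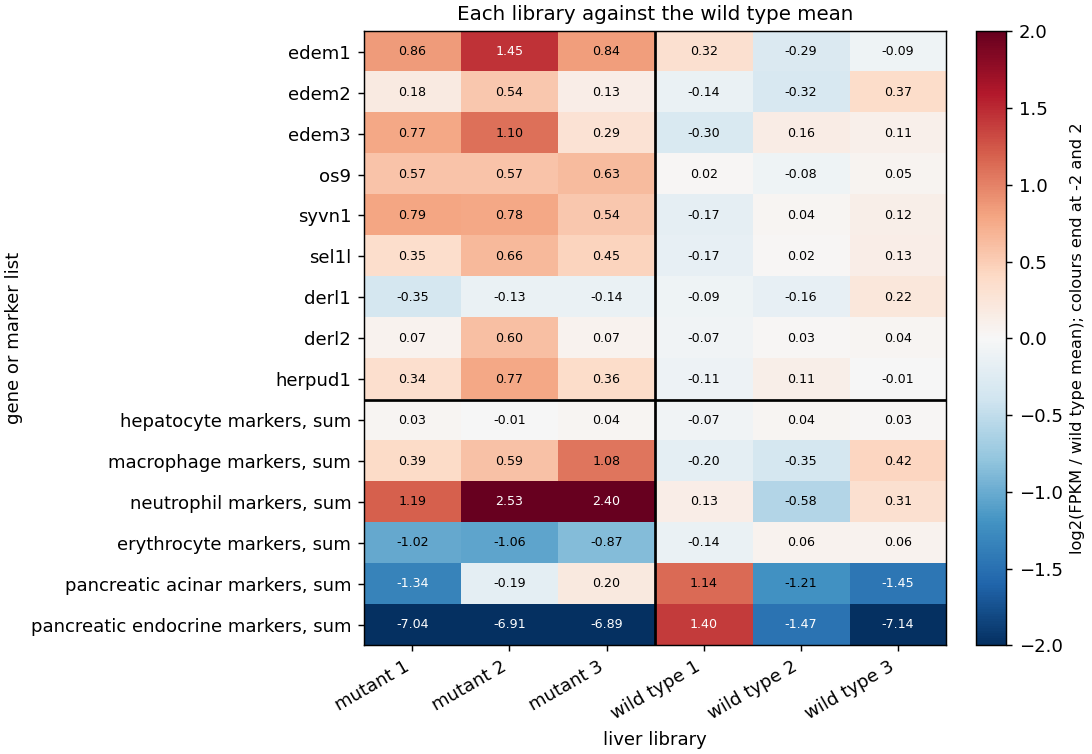
Log2 of FPKM over the wild type mean in each library (columns, mutant at the left), for the 9 genes (upper rows) and for the summed FPKM of 6 marker lists (lower rows). All genes but derl1 lie above the wild type mean in every mutant library, though derl2 and edem2 only slightly in replicates 1 and 3. Neutrophil markers are higher and erythrocyte markers lower in the mutant libraries. The summed hepatocyte markers stay near 0, and pancreatic markers vary between libraries of 1 genotype.

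The genes outside the route that followed the 9 most closely over the 6 libraries were cxcl11.1, CABZ01088134.1, skiv2l2, creld2 and si:dkey-27h10.2. Likeness was the correlation of log2(FPKM + 1) with the mean standardised level of the 9 genes. The libraries fall into 2 genotypes and share mutant replicate 2 as the highest, so this likeness is a description of which genes have that shape. The chemokine gene cxcl11.1 had 1.84, 4.40 and 1.72 FPKM in capn3b-/- livers, against 0.121, 0.204 and 0.767 FPKM in AB livers. Those wild type values rest on 2, 3 and 11 reads, and those of si:dkey-27h10.2 on 4, 3 and 17. Both genes entered the test only through the mutant libraries. The gene creld2, whose mammalian counterpart is an ER protein induced by ER stress, had 7.70, 13.8 and 8.62 FPKM in capn3b-/- livers, against 3.98, 4.50 and 6.33 FPKM in AB livers. The RNA helicase gene skiv2l2, whose span overlaps plpp1a, had 5.71, 7.13 and 5.79 FPKM in capn3b-/- livers, against 4.17, 4.19 and 4.96 FPKM in AB livers. In each of these, as in the mean standardised level of the 9 genes, mutant replicate 2 was at the top, mutant replicates 1 and 3 lay close together and wild type replicate 3 was the highest of its group. Among the 9 themselves sel1l had the highest correlation with the mean (0.97). The gene derl1 had the only negative one (-0.19), which is weak over 6 libraries. Each of the 9 is part of that mean, which favours a positive correlation.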

How the data were processed

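Per the labels' protocols, TRIzol and a column kit served to isolate RNA, which was sequenced as Illumina libraries. The authors deposited FPKM for 23354 genes and, per library, lists of start, end and splicing events with the FPKM of their transcripts. GRCz11 was the build and DESeq2 a tool named, per the submitters' processing notes; aligner, counter, annotation release and event tool: not given in the sources used here. FPKM scale with depth and gene length, so levels of different genes are comparable per length only.

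The 9 genes and the lists were chosen with earlier results of these data known. Named genes are the 9 genes, every listed gene of the wider route past the threshold, the 3 of smallest p per list, and the 5 genes most like the mean of the 9. Other genes of the mannosidase, lectin and derlin families, herpud2 and vcp were named after their values were seen. Of 21, 47, 32 and 16 listed genes for recognition, channel and ligases, extraction, and signalling, 21, 43, 30 and 15 were matched.

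A gene entered the test if 3 or more of the 6 libraries had 1 FPKM or more. limma 3.58.1 (R 4.3.3) was fitted to log2(FPKM + 1), with genotype as the only term, trend moderation, two-sided, and Benjamini-Hochberg adjustment. Fold changes on this scale understate the change of low genes. Reads were solved from the FPKM: for 100% of genes the solution lay within 0.05 of a whole number in every library, and the 9 genes held 139 to 2414 reads per library. The fit was tested on simulated data, with the same setting of spread for every gene, not estimated from these libraries. There it made more false calls than the threshold implies, which voom did not, and missed most of the smaller changes. How far this holds for the spread of the real genes was not tested. A call close to the threshold is therefore taken as weak, and a missed threshold does not show equality. Python 3.11.15, pandas 2.3.3, numpy 2.4.6, scipy 1.17.1 and matplotlib 3.10.9 were used.

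As alternatives, the fit was repeated with each library left out, with voom on the solved reads, with robust moderation, with a pseudocount of 0.1, with the replicate number as a block, with median or quantile scaling, and with no filter or a filter of 5 FPKM. Promoter sequence was not used here.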

Additional observations from a re-analysis of the deposited data

How the results depend on the processing

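Calls rested on few libraries. The log2 fold changes of the 9 genes and of the 14 called genes of the wider lists kept their sign under each of the 14 alternatives. That was largely fixed in advance and is no support. For 7 of the 9 genes and for the 14 called genes the groups did not overlap, so dropping a library could not turn the sign. The block, robust moderation and the filters left the fold changes as they were. Of the 9 genes, 3 were called in the main result and 0 with the replicate number as a block, and 0 to 3 without 1 library. Of the genes of the wider ERAD lists, which include folding chaperones, 12 were called in the main result. It was 6 with no expression filter, and 2 to 11 without 1 library. The 11, without wild type replicate 1, were 9 higher and 2 lower, whereas the 12 of the main result were all higher. Of all genes, 1268 were called in the main result, 592 with no expression filter, and 414 to 1134 without 1 library (414 without replicate 2 and 801 without replicate 1 of AB, 516 and 536 without replicates 1 and 2 of the mutant). Leaving out a library leaves fewer samples, and dropping the filter tests more genes; the cause of the loss under the block was not tested. The replicate numbers share only a number: the correlation of deviations from the group means was -0.04, -0.01 and -0.08 for the pairs numbered 1, 2 and 3, and the block gave 950 calls over all genes. Of 126 alternative values for the 9 genes, 17 lost a call and 1 gained one. Only the 3 called genes could lose one: of 14 alternatives each, edem1 lost it in 6, syvn1 in 5 and os9 in 6. Each of the 9 genes had 139 reads or more in every library.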
